A study of Mus musculus with 8 samples.

Results

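The Myc and Pvt1 locus was described as all deposited H3K27ac peaks overlapping positions 61700000 to 62300000 of mouse chromosome 15 (build mm9), a window that holds Myc and, downstream of it, Pvt1. Peaks of 8 libraries were merged over the genome where they shared at least 1 bp, and 27 of the 33920 merged regions fell in this window, made from 154 of 195577 peaks. Regions are named by the distance of their centre from the 5′ end of Myc, near position 61816900, so that the +407 kb region lies 407 kb downstream. The end of Pvt1 and its exons were not placed, since no annotation of build mm9 was used here, and no region is assigned to Pvt1.

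Acetylation of histone H3 at lysine 27 (H3K27ac) marks active promoters and enhancers. Chromatin immunoprecipitation with sequencing (ChIP-seq) was used to map it in 266-6, a line of mouse acinar cells of the pancreas. There were 4 groups of 2 libraries. In the knockdown + EGF group, siRNA against Arid1a (25 nM, 48 h) was followed by EGF, a ligand of the EGF receptor, at 40 ng/ml for 8 h. The EGF group had a non-targeting siRNA and the same EGF. The knockdown group had the Arid1a siRNA and a vehicle of 0.1% BSA, and the control group had the non-targeting siRNA and vehicle. All groups were kept without serum overnight before EGF or vehicle. Arid1a belongs to SWI/SNF, a complex that moves nucleosomes, and binds DNA. The labels name the siRNA target in capitals, as ARID1A. The lists name no genes, so neither the extent of the knockdown nor acinar marker genes were checked here. The labels describe duplicates without saying that they were separate cultures, so p-values measure the spread between these libraries, which may be technical.

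Myc encodes a transcription factor that drives growth and proliferation, and it is an early target of growth factor signalling through the EGF receptor and ERK. Its level is set in many tissues by enhancers scattered over long distances on either side of the gene. Pvt1 is a long non-coding RNA gene next to it, and in human breast cancer cells its promoter competes with that of MYC for enhancers. In mouse leukaemia cells, SWI/SNF acts on a cluster of Myc enhancers that lies further downstream than the window described here. In the acinar pancreas, Myc takes part in growth and in the change of acinar cells toward duct-like cells.

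Of the 27 regions, 13 had a peak in all 8 libraries, which is 48.1%, beside 49.0% of all regions of the series (16607). Another 5 were seen in 4 to 7 libraries, 5 in 2 or 3, and 4 in 1. The 13 shared regions lay at -46, +1, +53, +114, +121, +129, +273, +298, +310, +344, +347, +361 and +454 kb. The longest stretches without a peak of any library were 63.0 kb between the +143 and +208 kb regions, 50.3 kb between +221 and +273 kb, and 49.0 kb between +1 and +53 kb.

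**Figure D1:**
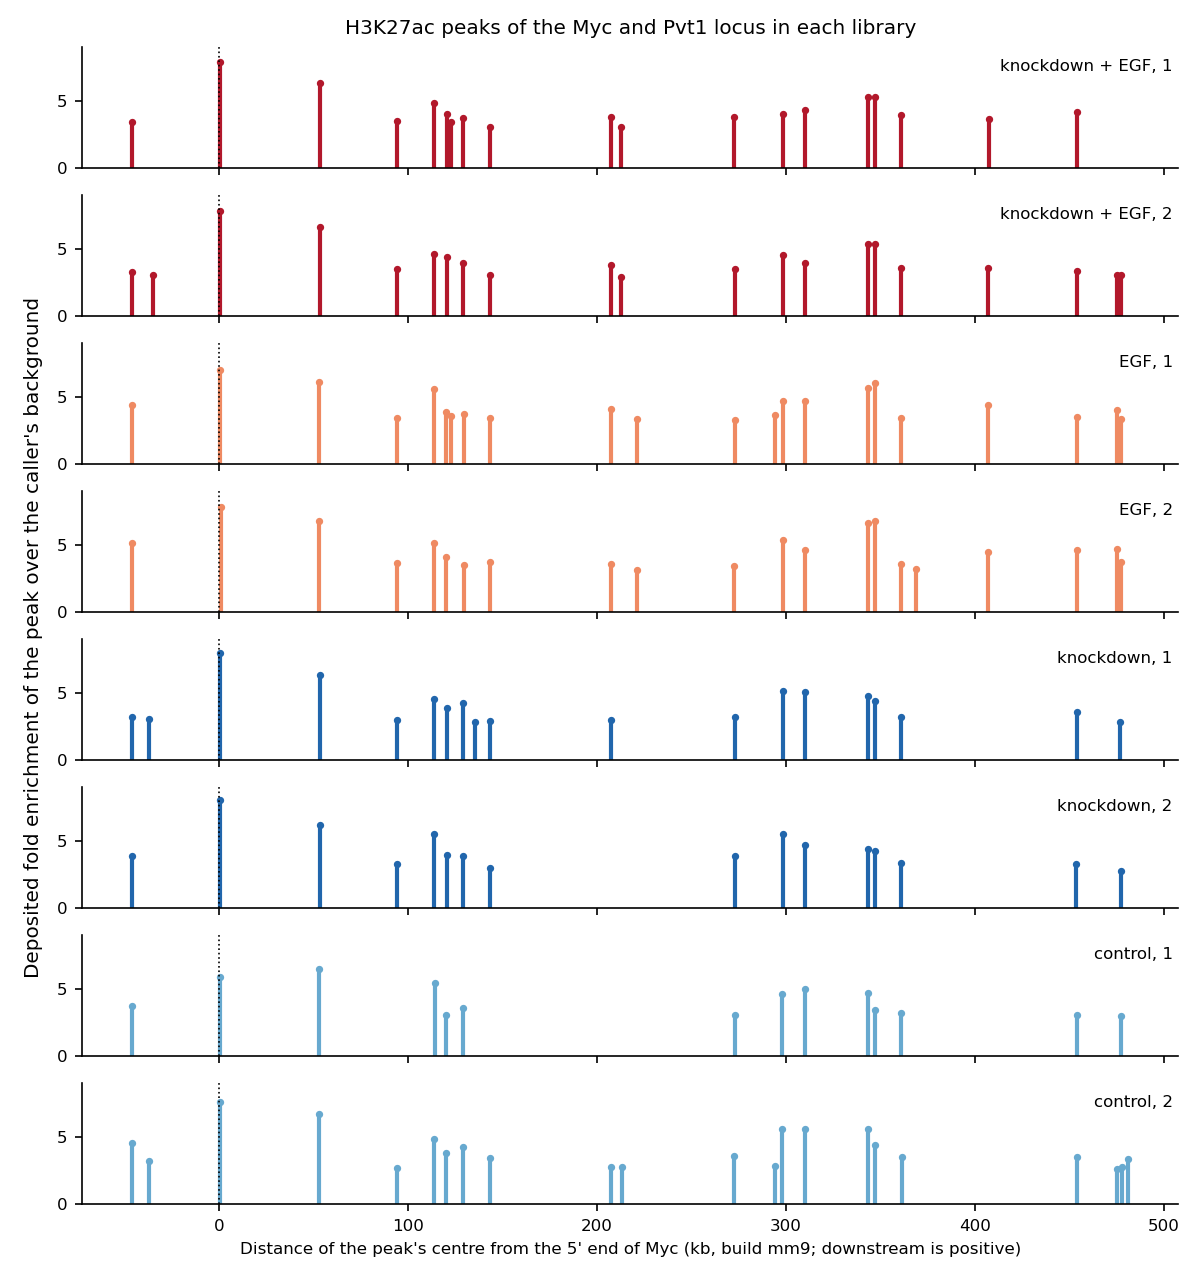
Each row is 1 library, each stem 1 deposited peak at the distance of its centre from the 5′ end of Myc (kb, build mm9, downstream positive), and the height is the deposited fold enrichment over the caller's background. The peaks at 0 and +53 kb are among the tallest in every library, and the stem at +407 kb stands in the 4 rows with EGF and in none of the 4 with vehicle.

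Libraries differed over the whole genome in ways that bear on every width below. The lists held 22030 to 28281 peaks, and the total covered length was 34.2 and 36.8 Mb in knockdown + EGF, 33.9 and 35.5 Mb in EGF, 46.3 and 48.7 Mb in knockdown, and 34.3 and 47.2 Mb in control. Both knockdown libraries and control replicate 2 thus had longer lists with wider peaks than the other 5 libraries. Read depth is unknown, and the part of list length in the results was not tested unless a value is given beside them. The deposited fold enrichment of a peak is the authors' value over their caller's background, and it is described here and not tested. In a bulk library, a smaller share of cells with the mark and less mark per cell cannot be told apart.

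The 5′ end of Myc carried the widest and, by mean fold, the most enriched peak of the locus. The +1 kb region (chr15:61815231-61820115, mm9) ran at its outermost edges from -1669 bp to 3215 bp relative to the 5′ end of the gene. Its peak was 4376 and 4660 bp wide in knockdown + EGF, 4592 and 4580 bp in EGF, 4750 and 4858 bp in knockdown, and 4556 and 4650 bp in control. The deposited fold was 7.91 and 7.80 in knockdown + EGF, 7.03 and 7.82 in EGF, 7.93 and 8.05 in knockdown, and 5.85 and 7.61 in control. The widths of EGF and vehicle libraries overlapped, as did those of knockdown and control siRNA libraries, and the single low fold was that of control replicate 1. Within its own list this peak was wider than 95.3% to 97.1% of peaks, and its fold exceeded that of 75.8% to 91.3%.

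Widths were tested by limma as log2(covered bp + 200), fitting group means, over the 28146 regions of the genome that at least 2 lists held. The Benjamini-Hochberg adjustment ran over all of these, and an adjusted p under 0.05 was called. Fold differences of short peaks are understated on this scale. At the 5′ end of Myc, the EGF minus vehicle difference averaged over both siRNA states was -0.05 ± 0.05 (SE, adjusted p = 0.514), and the knockdown minus control siRNA difference over both EGF states was 0.02 ± 0.05 (adjusted p = 0.877). With quantile normalization of the libraries both differences changed sign, to 0.18 (adjusted p = 0.121) and -0.11 (adjusted p = 0.485). No change in the width of H3K27ac over the start of Myc was called for either treatment.

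The region called for EGF lay 407 kb downstream (chr15:62223561-62224619, mm9). Its peak was 314 and 740 bp wide in knockdown + EGF and 870 and 1059 bp in EGF, and no peak was listed in the 2 knockdown and 2 control libraries. The 4 EGF libraries averaged 746 ± 316 bp (SD, n = 4) against 0 bp in all 4 vehicle libraries, so the groups did not overlap. These were modest peaks, with a deposited fold of 3.67 and 3.56 in knockdown + EGF and 4.41 and 4.45 in EGF, above 15.5% to 44.2% of the peaks of their own lists. Their −log10 q was 1.93 and 1.88 in knockdown + EGF and 3.02 and 3.24 in EGF, and at a limit of 5 no peak was left. A region without a listed peak may still carry acetylation below the caller's limit. The list of control replicate 1 was short and those of the 3 other vehicle libraries were long, and none held a peak here. With lists of equal length, the EGF minus vehicle difference by limma was 2.17 over both siRNA states (adjusted p = 0.0071). Under that setting it was 2.54 in control siRNA cells (adjusted p = 0.018) and 1.80 in knockdown cells (adjusted p = 0.0474). The part of list length in the listed peaks was not tested further.

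By limma the +407 kb region was higher with EGF by 2.17 ± 0.28 on the log2 scale over both siRNA states (SE, adjusted p = 0.0100). Of the 23 locus regions tested, 1 was higher and 0 were lower in this comparison, beside 1.79% higher and 11.2% lower of all regions tested. In cells with control siRNA the difference was 2.54 ± 0.40 (adjusted p = 0.0324), again the 1 locus region called, with 0 lower, beside 1.05% higher and 2.90% lower of all. The region had passed the filter, a peak in at least 2 lists, through the EGF libraries alone, and with no filter the call in control siRNA cells was lost (adjusted p = 0.0513). In knockdown cells the difference was 1.80 ± 0.40 and missed the threshold (adjusted p = 0.0556). No locus region was called there (0 of 23), beside 6.62% of all regions in either direction. An unadjusted p under 0.05 was found in 3 of the 23, beside 7010 of all 28146 regions tested. The 2 EGF differences were themselves compared by the interaction, which was -0.74 ± 0.57 (adjusted p = 0.816). The comparisons in each siRNA state use separate libraries, and the mean comparison uses all 8. Since 4 libraries were at 0, the spread within those groups is 0 and the fitted differences depend on the added 200 bp. The knockdown and control groups thus add no spread to the pooled estimate, so the SE and p-values of this region may be too small.

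The call over both siRNA states held when each library was left out in turn (adjusted p 0.0122 to 0.0418). The call in control siRNA cells was lost without EGF replicate 1 (adjusted p = 0.143), EGF replicate 2 (0.136), knockdown replicate 1 (0.0665), knockdown replicate 2 (0.065) or control replicate 2 (0.0527). In knockdown cells the region passed the threshold without control replicate 1 (adjusted p = 0.0436) or control replicate 2 (0.0397).

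**Figure D2:**
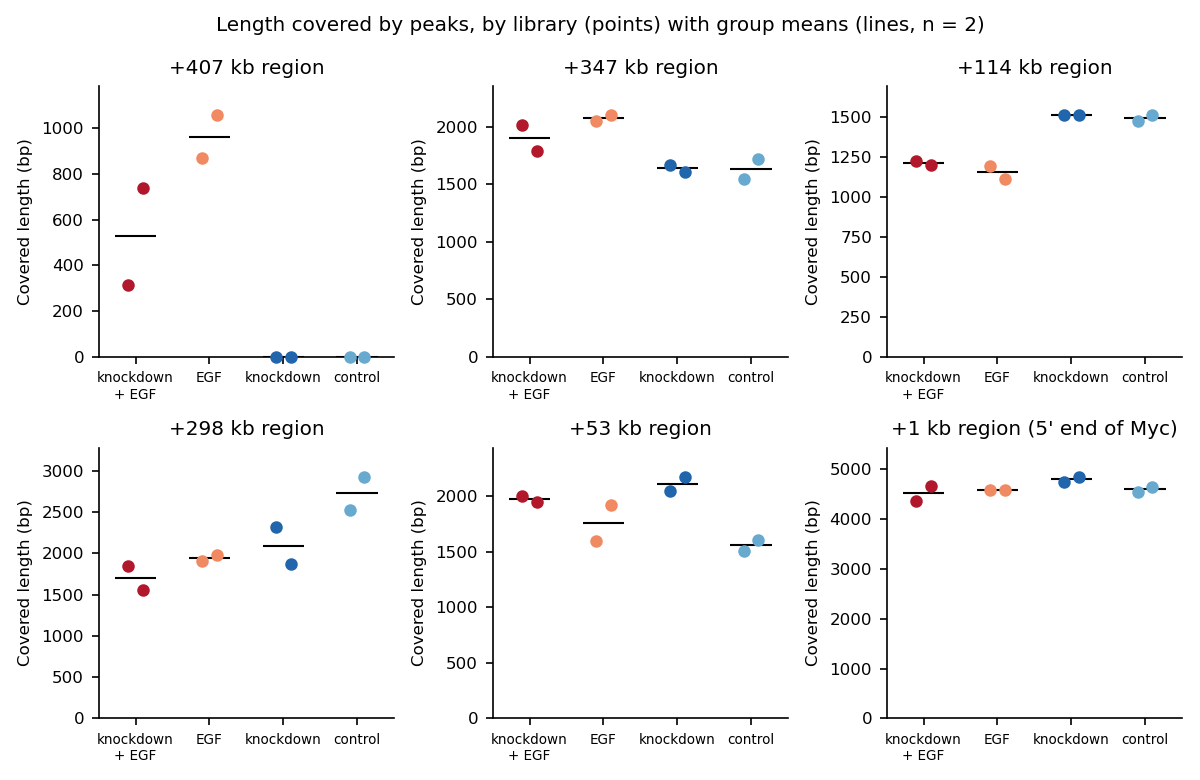
Points are libraries and lines are group means (n = 2) of the length covered by peaks, in bp, in 6 regions of the locus. The +407 kb region is at 0 bp in knockdown and control libraries, the +347 kb region is wider and the +114 kb region narrower in every EGF library than in every vehicle library, and the peak at the 5′ end of Myc lies between 4376 and 4858 bp throughout.

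By peak presence, which takes no account of width, 2, 2 and 1 locus regions changed with EGF in control siRNA cells, in knockdown cells and over both states, where limma called 1, 0 and 1. Gained means a peak in 2 of 2 libraries of the group named first and in 0 of 2 of the other, and lost means the reverse. With EGF in control siRNA cells, 2 locus regions were gained (+221 and +407 kb) and 0 lost, beside 2.00% gained and 4.26% lost of all regions. With EGF in knockdown cells, 2 were gained (+213 and +407 kb) and 0 lost, beside 0.996% gained and 8.40% lost. Where a library had to cover at least 50% of a region to hold it, EGF in knockdown cells gained 0 and lost 2 (+273 and +361 kb). In control siRNA cells that rule gave 2 gained (+208 and +407 kb) and 0 lost. Without control replicate 1, EGF in control siRNA cells gained 2 and lost 3, and without control replicate 2 it gained 5 and lost 0. In knockdown cells, 2 were gained and 2 lost without knockdown replicate 2. A library left out leaves 1 in its group, so regions anywhere in the genome meet the rule more easily. The share of all regions was not counted for the 50% rule or with a library left out, so these counts are not read as particular to the locus. Over both siRNA states, with 4 libraries against 4, 1 region was gained (+407 kb) and 0 were lost, beside 0.404% and 1.61% of all regions. With 2 libraries against 2, no exact permutation test can give a p under 0.333, so these counts are descriptions.

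The +213 and +221 kb regions were short peaks 7.3 kb apart that appeared in different EGF groups. The +221 kb region (chr15:62037976-62038471, mm9) had a peak of 200 and 427 bp in EGF, with a deposited fold of 3.32 and 3.09, and none in the other 6 libraries. Its EGF minus vehicle difference in control siRNA cells was 1.32 ± 0.32 (SE, adjusted p = 0.0873 by limma). Under EGF, its knockdown minus control siRNA difference was -1.32 ± 0.32 (adjusted p = 0.170), and the interaction was -1.32 ± 0.45 (adjusted p = 0.430). These differences all set the same peaks of the EGF group against libraries without a peak. The region passed the filter through that group alone, and no other group adds spread to its SE. With no filter the adjusted p by limma for EGF in control siRNA cells was 0.129. The +213 kb region (chr15:62029521-62030707, mm9) had peaks of 240 and 454 bp in knockdown + EGF, none in EGF or knockdown, and none and 1187 bp in control. The widest of its 3 peaks thus stood in a library with neither treatment, and their deposited fold was between 2.76 and 3.08.

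A pair of regions 344 and 347 kb downstream, 1.1 kb apart, had a higher mean width and fold in EGF libraries without passing the test. The +347 kb region (chr15:62162909-62165021, mm9) was 2018 and 1792 bp wide in knockdown + EGF, 2048 and 2101 bp in EGF, 1670 and 1603 bp in knockdown, and 1543 and 1716 bp in control. Its deposited fold was 5.25 and 5.38 in knockdown + EGF, 6.03 and 6.74 in EGF, 4.41 and 4.27 in knockdown, and 3.39 and 4.38 in control. Every EGF library lay above every vehicle library in both measures. The width averaged 1990 ± 136 bp with EGF and 1633 ± 75.8 bp with vehicle (SD, n = 4 each), and the fold averaged 5.85 ± 0.68 with EGF and 4.11 ± 0.49 with vehicle. Set against the Myc 5′ peak of the same library, the fold at +347 kb was 0.66 and 0.69 of it in knockdown + EGF, 0.86 and 0.86 in EGF, 0.56 and 0.53 in knockdown, and 0.58 and 0.58 in control. The ratio too did not overlap between EGF and vehicle libraries. Among the 13 shared locus regions, it was the 1 whose ratio was above in all EGF libraries, beside 3.99% of all shared regions, and 0 were below in all, beside 33.9%.

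The limma difference at +347 kb, EGF minus vehicle over both siRNA states, was 0.26 ± 0.07 (SE, adjusted p = 0.0721), and with quantile normalization of the libraries it was 0.47 (adjusted p = 0.0261). Of the 13 locus regions with a peak in every library, it was the 1 whose width was above in all EGF libraries, beside 1.94% of all such regions. It was also the 1 whose fold was above in all of them, beside 6.11%. The +344 kb region (chr15:62159210-62161801, mm9) was 1480 and 2592 bp wide in knockdown + EGF, 1959 and 2258 bp in EGF, 1414 and 1661 bp in knockdown, and 1434 and 1521 bp in control. Its fold was 5.31 and 5.37 in knockdown + EGF, 5.66 and 6.64 in EGF, 4.78 and 4.38 in knockdown, and 4.70 and 5.58 in control. Both ranges overlapped, through replicate 1 of knockdown + EGF for the width and control replicate 2 for the fold, and the limma difference was 0.39 ± 0.17 (adjusted p = 0.171). It passed with quantile normalization, at 0.61 (adjusted p = 0.0476), and without replicate 1 of knockdown + EGF, at 0.57 (adjusted p = 0.0489).

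**Figure D3:**
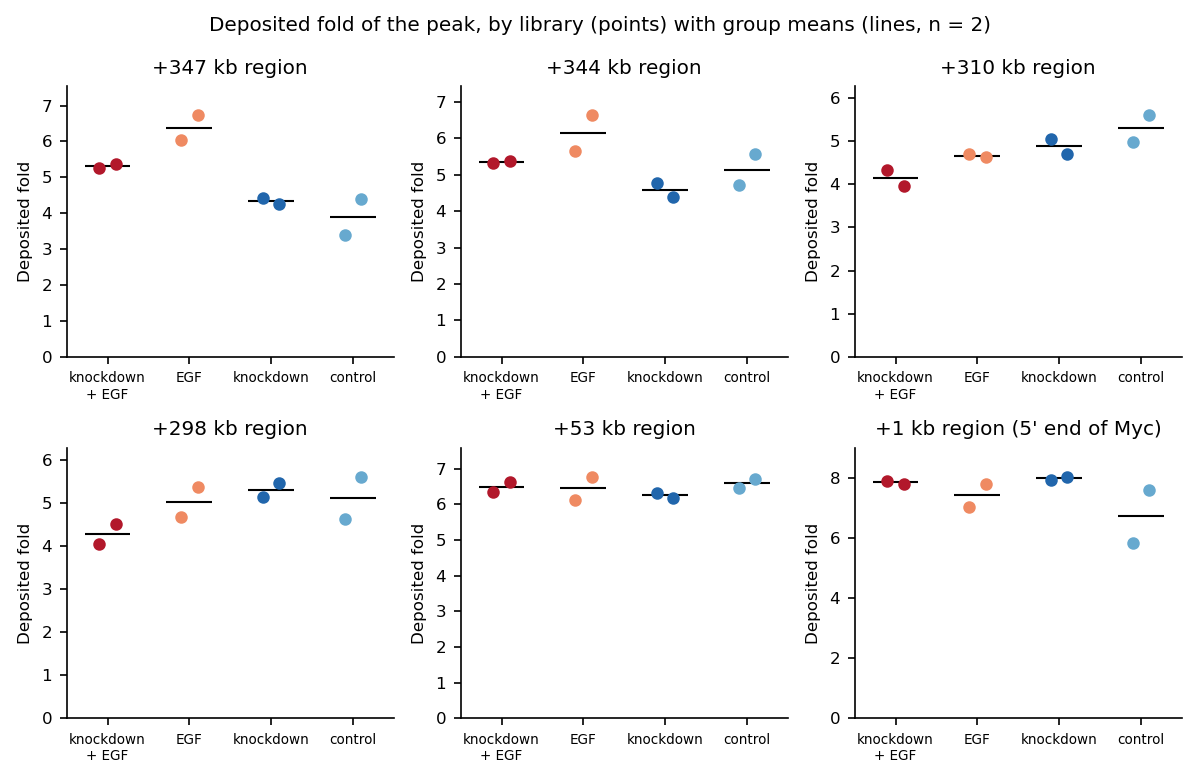
Points are libraries and lines are group means (n = 2) of the deposited fold enrichment of the peak over the caller's background, in 6 regions. The +347 kb region is the one where all EGF libraries stand above all vehicle libraries, the +310 kb region the one where all stand below, and the Myc 5′ peak reaches 5.85 to 8.05.

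Narrower peaks with EGF were seen at 114 and 298 kb, again short of the threshold. The +114 kb region (chr15:61930174-61931702, mm9) was 1221 and 1196 bp wide in knockdown + EGF, 1194 and 1114 bp in EGF, 1511 and 1511 bp in knockdown, and 1473 and 1509 bp in control. No EGF library overlapped a vehicle library, with 1181 ± 46.5 bp under EGF and 1501 ± 18.7 bp under vehicle (SD, n = 4 each). Control replicate 1 had a genome-wide covered length like that of the EGF libraries and a width of 1473 bp here. With quantile normalization of the libraries the limma difference between EGF and vehicle over both siRNA states was -0.072 (adjusted p = 0.73). The part of library-wide width in this was not tested. The difference lay at the downstream edge, which stood 114494 and 114523 bp from the 5′ end of Myc in knockdown + EGF, 114514 and 114435 bp in EGF, 114802 and 114802 bp in knockdown, and 114800 and 114802 bp in control.

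Without quantile normalization the width at +114 kb fell short of a call at -0.30 ± 0.08 (SE, adjusted p = 0.0586 by limma). It passed with 50 bp added in place of 200 bp (adjusted p = 0.0461). It was the 1 shared locus region whose width was below in all EGF libraries, beside 15.8% of all shared regions. Its deposited fold did not separate the groups, at 4.83 and 4.58 in knockdown + EGF, 5.60 and 5.14 in EGF, 4.53 and 5.49 in knockdown, and 5.45 and 4.82 in control.

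The +298 kb region (chr15:62113300-62116287, mm9) was 1846 and 1563 bp wide in knockdown + EGF, 1910 and 1985 bp in EGF, 2319 and 1868 bp in knockdown, and 2525 and 2934 bp in control. Both control libraries were the widest, and knockdown replicate 2 fell within the range of the EGF libraries. Here the upstream edge moved more than the downstream one: it stood 297366 and 297619 bp from the 5′ end of Myc in knockdown + EGF, 297341 and 297341 bp in EGF, 297069 and 297459 bp in knockdown, and 296829 and 296400 bp in control. The limma difference for EGF over both siRNA states was -0.36 ± 0.10 (SE, adjusted p = 0.0684), and with quantile normalization it was -0.15 (adjusted p = 0.397). At +310 kb (chr15:62126102-62128072, mm9) the deposited fold was 4.33 and 3.96 in knockdown + EGF, 4.70 and 4.62 in EGF, 5.05 and 4.71 in knockdown, and 4.99 and 5.61 in control. It was the 1 shared locus region with a lower fold in all EGF libraries, though by a narrow step between 4.70 and 4.71, beside 17.5% of all shared regions. Relative to the Myc 5′ peak of the same library the groups overlapped, at 0.55 and 0.51 in knockdown + EGF, 0.67 and 0.59 in EGF, 0.64 and 0.58 in knockdown, and 0.85 and 0.74 in control. Its width difference was -0.21 ± 0.13 by limma (adjusted p = 0.309). It was 0 to 2 decimals with quantile normalization (adjusted p = 0.999) and -0.34 without control replicate 1 (adjusted p = 0.0358).

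**Figure D4:**
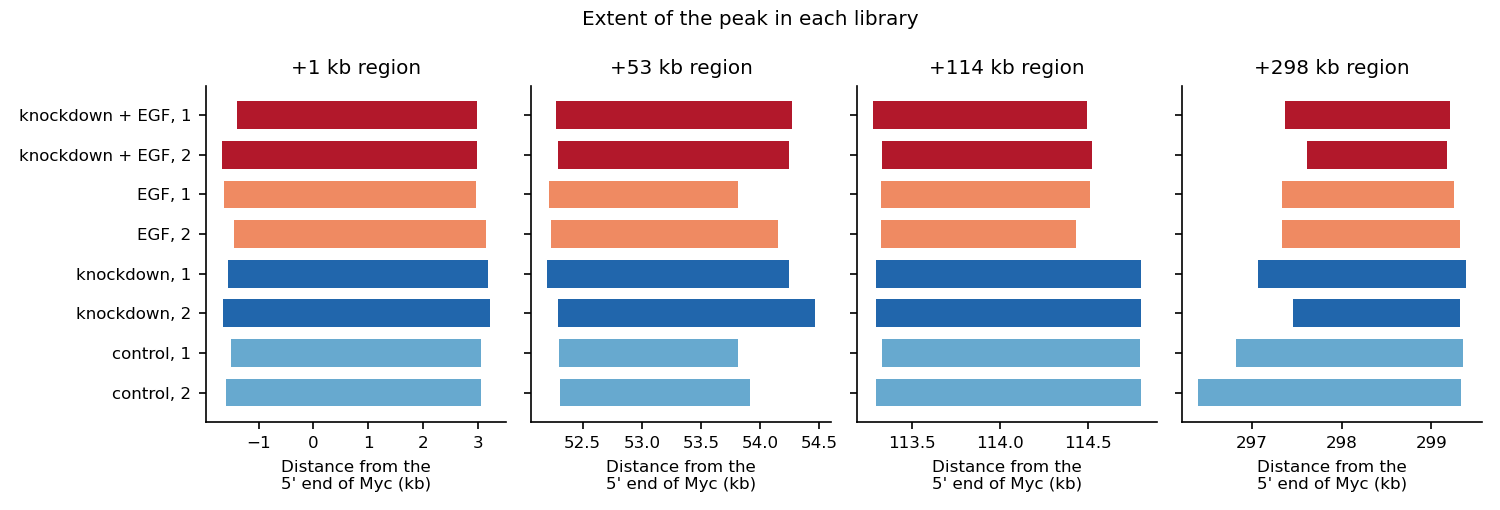
Bars show where the deposited peak begins and ends in each library, in kb from the 5′ end of Myc, for 4 regions. The +114 kb peak ends near 114.5 kb in the EGF rows and near 114.8 kb in the vehicle rows, the +53 kb peak reaches 54.2 kb or further in the 4 knockdown rows, and the peak at the 5′ end of Myc keeps about the same extent.

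For Arid1a knockdown no region of the locus was called. The +53 kb region (chr15:61869100-61871364, mm9), the most enriched after the Myc 5′ peak with a mean fold of 6.45, came closest over both EGF states. It was 1998 and 1951 bp wide in knockdown + EGF, 1599 and 1917 bp in EGF, 2047 and 2177 bp in knockdown, and 1509 and 1607 bp in control. Widths with the Arid1a siRNA lay above all those with control siRNA, at 2043 ± 97.4 bp against 1658 ± 178 bp (SD, n = 4 each), although 1951 and 1917 bp were close. It was the 1 shared locus region above in all knockdown libraries, beside 4.95% of all shared regions, and 0 were below in all, beside 0.867%. Its downstream edge stood 54271 and 54241 bp from the 5′ end of Myc in knockdown + EGF, 53813 and 54149 bp in EGF, 54246 and 54464 bp in knockdown, and 53809 and 53917 bp in control.

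The knockdown minus control siRNA difference at +53 kb was 0.28 ± 0.08 over both EGF states (SE, adjusted p = 0.157 by limma) and 0.40 ± 0.11 with vehicle (adjusted p = 0.199). Its deposited fold overlapped between the groups, at 6.35 and 6.62 in knockdown + EGF, 6.13 and 6.78 in EGF, 6.33 and 6.17 in knockdown, and 6.47 and 6.72 in control. No shared region of the locus had a fold above or below in all knockdown libraries (0 of 13), beside 9.59% of all shared regions. Relative to the Myc 5′ peak of the same library, the fold was below in all knockdown libraries in 3 shared regions of the locus (-46, +53 and +344 kb), beside 6.67% of all, and above in 0, beside 1.76%. This ratio rests on the Myc 5′ peak, whose fold was at least 7.80 in the 4 knockdown libraries and 5.85 to 7.82 in the 4 others. At +53 kb it was 0.80 and 0.85 in knockdown + EGF, 0.87 and 0.87 in EGF, 0.80 and 0.77 in knockdown, and 1.11 and 0.88 in control. The control group holds 1 short and 1 long list, with widths at +53 kb of 1509 and 1607 bp. With quantile normalization the width difference over both EGF states was 0.19 (adjusted p = 0.397 by limma). The part of list length in it was not tested.

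The -46 kb region (chr15:61770081-61771934, mm9), the only shared one upstream of Myc, was narrowest with both treatments. It was 917 and 1084 bp wide in knockdown + EGF, 1516 and 1467 bp in EGF, 1512 and 1359 bp in knockdown, and 1438 and 1854 bp in control. Both knockdown + EGF libraries lay below the other 6, and the share of all regions with this order is not given here. Its deposited fold was 3.39 and 3.31 in knockdown + EGF and 4.37 and 5.16 in EGF. It was 3.17 and 3.87 in knockdown and 3.69 and 4.58 in control, so the siRNAs overlapped. Relative to the Myc 5′ peak the fold was 0.43 and 0.42 in knockdown + EGF and 0.62 and 0.66 in EGF. The ratio was 0.40 and 0.48 in knockdown and 0.63 and 0.60 in control. It separated the siRNAs, though it also depends on the fold of the Myc 5′ peak. The limma difference for knockdown under EGF was -0.50 ± 0.16 (SE, adjusted p = 0.297), for EGF in knockdown cells -0.45 ± 0.16 (adjusted p = 0.152, and -0.11 with quantile normalization), and the interaction was -0.33 ± 0.22 (adjusted p = 0.782). This region was named after its values were seen.

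Over the 23 locus regions tested, knockdown with vehicle had 0 called, beside 1.37% of all regions. An unadjusted p under 0.05 was found in 2, beside 3576 of all 28146. Knockdown under EGF had 0 called, beside 0.661%, with 2 unadjusted, beside 3047 of 28146. Over both EGF states 0 were called, beside 0.352%, with 4 unadjusted, beside 5038 of 28146. The smallest adjusted p over both EGF states was that of +53 kb. The interaction had 0 called in the locus, beside 0% of all regions by limma, where 2525 of 28146 regions and 1 of the 23 had an unadjusted p under 0.05. By presence, knockdown with vehicle changed 0 locus regions, beside 3.82% of all. Without control replicate 1 it gained 0 and lost 3, and without control replicate 2 it gained 2 and lost 0. Knockdown under EGF gained 1 (+213 kb) and lost 1 (+221 kb), beside 2.02% gained and 2.34% lost, and with at least 50% cover it gained 0 and lost 2 (+273 and +361 kb). Over both EGF states knockdown changed 0, beside 0.389%. For the counts with a library left out or with 50% cover, the share of all regions was not counted.

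The median differences of the 23 regions stood a little apart from those of all regions tested. For EGF minus vehicle the median was 0.02 in the locus and -0.14 over all in control siRNA cells, -0.09 and -0.32 in knockdown cells, and -0.07 and -0.25 over both states. For knockdown minus control siRNA it was 0.01 in the locus and 0.18 over all with vehicle, -0.16 and 0 with EGF, and -0.10 and 0.11 over both states. With EGF over both states, 10 locus regions had a positive and 13 a negative difference, and with knockdown 7 and 16. After quantile normalization the median of all regions for EGF over both states moved to 0.04. The locus median under that setting is not given here.

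**Figure D5:**
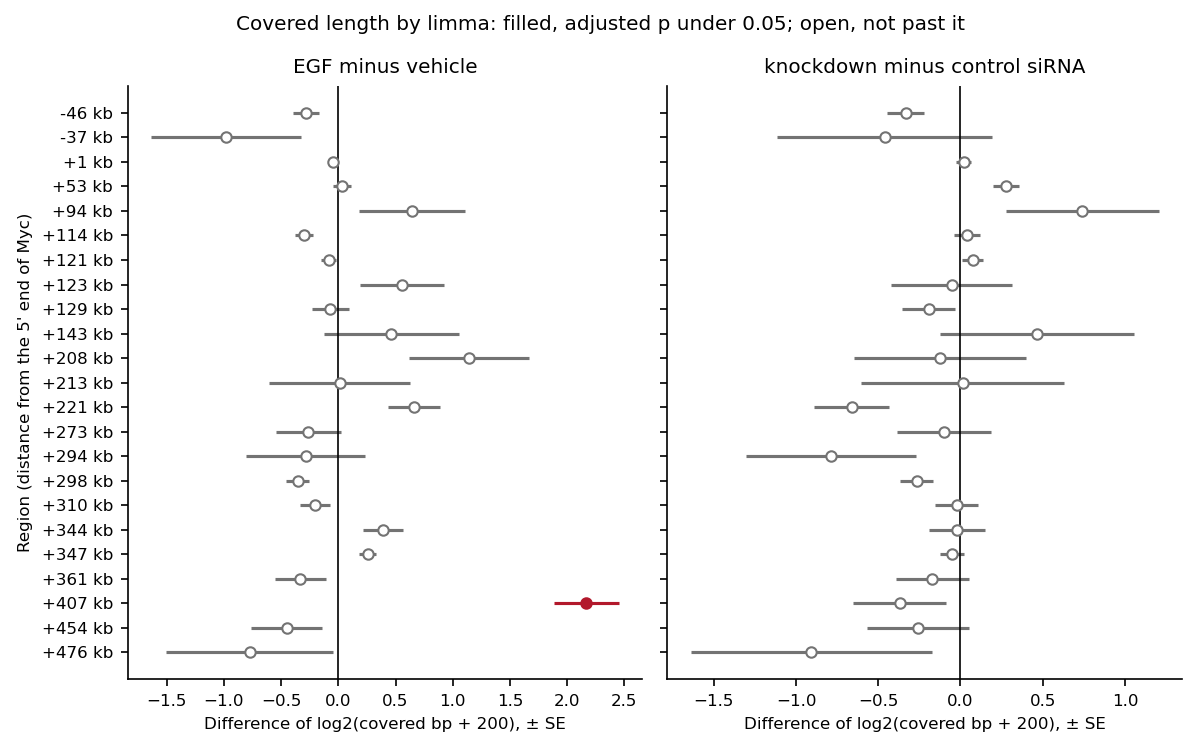
Points are differences of log2(covered bp + 200) by limma with bars of ± SE for the 23 locus regions tested, for EGF minus vehicle (left) and knockdown minus control siRNA (right), each over both states of the other factor. The filled point, +407 kb with EGF at 2.17, is the 1 region past an adjusted p of 0.05, and the 5′ end of Myc sits at -0.05 and 0.02.

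The remaining regions were shorter or of lower fold. The +121 kb region (chr15:61935534-61939761, mm9) was the widest after the Myc 5′ peak, at 3157 and 3205 bp in knockdown + EGF, 3228 and 3288 bp in EGF, 3947 and 3398 bp in knockdown, and 3095 and 3320 bp in control, yet its deposited fold was only 3.03 to 4.38. Among all locus regions its width followed that of the Myc 5′ peak most closely over the 8 libraries, with a mean absolute difference of 0.052 between their centred log2 covered lengths. The +310 and +114 kb regions came next at 0.126 and 0.128. This measure favours regions whose width hardly varied, and library-wide width is shared by all of them.

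The +94, +143 and +208 kb regions all lacked a peak in control replicate 1. The +94 kb region had 728 and 757 bp in knockdown + EGF, 607 and 888 bp in EGF, 466 and 1309 bp in knockdown, and none and 453 bp in control. At +143 kb the widths were 543 and 997 bp in knockdown + EGF, 823 and 1202 bp in EGF, 1298 and 760 bp in knockdown, and none and 1024 bp in control. The +208 kb region was found in all EGF libraries, with 367 and 600 bp in knockdown + EGF and 717 and 665 bp in EGF, and in 1 library each of knockdown (485 bp) and control (353 bp). Its EGF minus vehicle difference over both states was 1.14 ± 0.53 (SE, adjusted p = 0.188 by limma). It passed with quantile normalization, at 1.74 (adjusted p = 0.0162), and with lists of equal length, at 1.95 (adjusted p = 0.0053).

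The +476 kb region varied most in shape. It was absent from replicate 1 of knockdown + EGF and 637 bp in replicate 2, 1377 and 932 bp in EGF, 2285 and 399 bp in knockdown, and 469 and 2381 bp in control. It consisted of 2 separate peaks in 4 libraries and of 1 peak in the other 3 that had it. The +129, +273, +361 and +454 kb regions were present throughout, with widths from 261 bp at +454 kb in replicate 1 of knockdown + EGF to 2212 bp at +361 kb in control replicate 2. At +129, +273, +361 and +454 kb the widest peak stood in a library with a long list (control replicate 2 or knockdown replicate 2). The -37, +123 and +294 kb regions were seen in 2 libraries each, and those at -35, +135, +369 and +481 kb in 1 each, in 1 library of knockdown + EGF, knockdown, EGF and control in that order.

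Summed over the window, neither treatment gave a difference in the number of peaks or in covered length that passed the test. The number of peaks was 19 and 21 in knockdown + EGF, 22 and 21 in EGF, 19 and 16 in knockdown, and 14 and 22 in control. EGF libraries had 20.75 ± 1.26 peaks and vehicle libraries 17.75 ± 3.50 (SD, n = 4 each, exact permutation test, two-sided p = 0.257). As a share of each library's list, locus peaks were 0.0862% and 0.0903% in knockdown + EGF, 0.0984% and 0.0910% in EGF, 0.0708% and 0.0581% in knockdown, and 0.0632% and 0.0778% in control. The share was higher in all 4 EGF libraries, with p = 0.0286 by the exact permutation test, the smallest that 4 against 4 can give, and vehicle lists include the 3 longest.

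The covered length was 23.5 and 26.99 kb in knockdown + EGF, 28.6 and 29.7 kb in EGF, 30.8 and 27.9 kb in knockdown, and 22.6 and 35.4 kb in control. It averaged 27.2 ± 2.69 kb with EGF and 29.1 ± 5.36 kb with vehicle (SD, n = 4 each, exact permutation p = 0.543). For knockdown against control siRNA it was 27.3 ± 2.98 kb with the Arid1a siRNA and 29.1 ± 5.24 kb with control siRNA (exact permutation p = 0.600). The number of peaks was 18.75 ± 2.06 with the Arid1a siRNA and 19.75 ± 3.86 with control siRNA (exact permutation p = 0.657). The widest spread lay between the 2 control libraries. Without control replicate 2 both differences in covered length changed sign, to 143.2 bp for EGF and 325.75 bp for knockdown.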

How the data were processed

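Peaks were called in each library alone and not on pooled reads, since the authors deposited a list for every library. The submitters' processing notes name deepTools 3.0.2, MACS2 2.1.1.20160309.0, SAMtools and Bowtie2 2.3.4.2, and the build mm9, without their roles. Input use and caller settings: not given in the sources used here. Each deposited peak has a score, a fold enrichment (a ratio over the caller's background), a −log10 p and a −log10 q. The least −log10 q in the deposited lists was 1.0 and the narrowest peak 200 bp. Read depth is unknown. A deeper library can yield more and wider peaks.

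Peaks were merged and covered length per region counted with Python 3.11.15, pandas 2.3.3, NumPy 2.4.6 and SciPy 1.17.1. Covered length was tested with limma 3.58.1 under R 4.3.3, with trended empirical Bayes moderation, as described with the results, in 7 comparisons. The fit was also run on simulated data in which every group had a spread. That run does not bear on regions where a group had no peak at all. For totals, an exact permutation test (two-sided, 70 assignments) was used. Figures used matplotlib 3.10.9.

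Named regions were the one at the 5′ end of Myc, those called by limma or changed in presence, the 5 with the highest mean fold, the 3 widest and the 3 most like the Myc region in width. Members, lists and tests were chosen with earlier results of these data known. Alternatives were other pseudocounts, filters, quantile normalization, wider merging, a stricter q, half-region cover, equal lists, a replicate block, the window rule and leaving out each library. No mm9 annotation was used.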

Additional observations from a re-analysis of the deposited data

Results flagged for a closer look

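The number of locus peaks in the 4 control siRNA libraries was 22 and 21 in EGF against 14 and 22 in control. Control replicate 1, with 14 peaks, stood apart: its gap to the nearest of the others was 0.875 of the whole range. Genome-wide, the 2 EGF lists held 22361 and 23080 peaks and that of control replicate 1 held 22167. In all, 8 sets of 4 libraries were examined, and chance marks about 1 in 20.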

How the results depend on the processing

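The rise at +407 kb with EGF over both siRNA states passed the threshold in every alternative that could test it (adjusted p 0.00671 to 0.0418 by limma), at 3.88 with 50 bp added and 0.79 with 1000 bp added. Keeping only peaks with −log10 q of at least 5 left no peak there. Limma then called 0 of 8 locus regions for EGF in control siRNA cells and over both states, beside 750 and 1585 of all 12665. By presence, 0 locus regions changed with EGF in control siRNA cells, with EGF in knockdown cells and for knockdown under EGF. In control siRNA cells the locus count was also 0 with no filter (+407 kb at adjusted p = 0.0513), and 0 with the replicate block (0.0601). That block changed no other count, and the replicate numbers were not shown to pair the libraries (correlations of replicate differences between groups of -0.009 to 0.032 across regions). With 50 bp added the counts were 2 in control siRNA cells, 1 in knockdown cells and 3 over both states. In that order, all 28146 regions tested gave 1548, 2233 and 3890. Quantile normalization gave 4 over both states (+208, +344, +347 and +407 kb), beside 3060 of all 28146. Quantile normalization turned the EGF difference at the 5′ end of Myc to 0.178 and the knockdown difference to -0.106, and leaving out each library put the knockdown difference between -0.003 and 0.041. With lists of equal length, 20 locus regions were tested. Limma called 4 for EGF in control siRNA cells, 2 in knockdown cells, 3 over both states and 1 for knockdown under EGF. In that order, all 24966 regions tested gave 1548, 1659, 3481 and 519. Presence then changed 4 for EGF in control siRNA cells and 1 for knockdown with vehicle. By presence, the share of all regions was not counted at the stricter q or with equal lists. The cause of the shifts in these counts was not tested.

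The EGF minus vehicle difference in locus covered length was +620 bp with equal lists (exact permutation p = 0.743) and +0.0114 percentage points as a share of each library (p = 0.0857), against -1931.5 bp as measured. That in peak number was -1 at −log10 q of at least 5 (exact permutation p = 0.457), 4.75 with equal lists (p = 0.0286) and 0.024 percentage points as a share (p = 0.0286). Leaving out each library gave -4122.8 to 143.2 bp for covered length with EGF and -3940.25 to 325.75 bp with knockdown, both turned by control replicate 2, and 1.75 to 4.42 peaks with EGF and -2.92 to -0.083 with knockdown. With a library left out, the limma counts of the locus changed for EGF in each siRNA state and over both, and for knockdown with vehicle. The counts over all regions changed in these comparisons too. The locus counts of the other comparisons did not change. Presence counts ran from 3 to 5, 3 to 4, 0 to 3 and 3 to 3 regions, gained and lost together, for EGF in control siRNA cells, EGF in knockdown cells, knockdown with vehicle and knockdown under EGF. The share of all regions was not counted for these. A library left out leaves 1 in its group, which limma assumes to vary like the others. The +221 kb region had no value with a peak required in 4 libraries, with equal lists, at the stricter q or without either EGF replicate. Depth is unknown, so a region without a listed peak may hold signal below the caller's limit.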
